A study of Mus musculus with 6 samples.

Results

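A group of 10 enzymes and regulators that build and desaturate fatty acids was followed in mouse lung RNA: Acly, Me1, Acaca, Fasn, Elovl5, Elovl6, Scd1, Scd2, Srebf1 and Thrsp. They were chosen by gene symbol, and the 10 symbols matched 10 of the 41388 genes in the count table, all of them protein coding. All 10 passed the filter on low counts, as did 18660 genes in all. The list joins genes that are used by alveolar type 2 cells, which make surfactant lipid, and by fat cells.

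Lungs came from adult mice on a C57BL/6J background at Zeitgeber time (ZT) 7, which falls 7 h into the light phase, under a cycle of equal light and dark with free access to food. KO mice belonged to the strain B6.129S7-Zpbp2tmZuk/Mmjax, in which the start of Zpbp2 (exons 1 to 3) is deleted, and WT mice were C57BL/6J animals born in the same colony. Each genotype had 3 libraries (WT1, WT2 and WT3 against KO1, KO2 and KO3), made from total RNA of whole lung. The study asked how the deletion alters the lung transcriptome and the circadian clock. The labels give neither sex nor age in weeks, and chromosome 11 next to the deletion may still carry sequence of the 129S7 donor strain, which cannot be told apart from the deletion itself. Fewer cells of a type and less RNA per cell cannot be told apart in such bulk samples.

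Fatty acid synthesis starts in the cytosol, where ATP citrate lyase (Acly) splits citrate into acetyl-CoA and malic enzyme (Me1) supplies NADPH. Acetyl-CoA carboxylase (Acaca) turns acetyl-CoA into malonyl-CoA, and fatty acid synthase (Fasn) joins these units into palmitate. Elongases (Elovl5, Elovl6) then lengthen the chain and stearoyl-CoA desaturases (Scd1, Scd2) place a double bond in it. The transcription factor SREBP-1, the product of Srebf1, and the nuclear protein THRSP (Spot 14) are known to promote expression or activity of this pathway. In the lung, type 2 cells make palmitate for the phosphatidylcholine of surfactant, while white and brown fat cells store or burn the product.

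Total counts lay between 59134950 and 71354388 per library. Levels are given as counts per 1000000 (CPM) of the library size after scaling with TMM factors. The type 2 cell marker Sftpc stood at 12108 to 19569 CPM, high in every library of this lung tissue. Zpbp2 had 20, 15 and 7 counts in WT1, WT2 and WT3 and 1, 0 and 0 counts in KO1, KO2 and KO3, which matched the genotype labels. KO2 and KO3 differed by little more than counting noise, with a variance 1.71 to 3.32 times that of counting over classes of rising counts, whereas the ratio reached 32.4 to 147 in the highest class of every other pair within a genotype. They were therefore counted as 1 sample, and means are given as mean ± SD with n = 3 for WT and n = 2 for KO. WT3 and KO1 stood apart by transcripts of squamous epithelium, whose 15 markers summed to 4700 and 8772 CPM there and to 29.9 to 37.8 CPM in the other 4 libraries.

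RefSeq start sites on GRCm38.p6 were given for 8 of the 10 genes, with 11 windows of 300 bases (250 before the start and 50 from it on). Of these, 3 are shown: Fasn and Thrsp, a synthase and a regulator that were lower in every KO library and not near WT levels as Srebf1 was, and Elovl5, the only gene of the group that was higher in every KO library. Capitals mark matches to the CCAAT box, written CCAAT or ATTGG on the opposite strand, and to the E-box CACGTG. Each window runs 5′ to 3′ in the direction of the gene.
Fasn, chr11:120824498-120824797, minus strand: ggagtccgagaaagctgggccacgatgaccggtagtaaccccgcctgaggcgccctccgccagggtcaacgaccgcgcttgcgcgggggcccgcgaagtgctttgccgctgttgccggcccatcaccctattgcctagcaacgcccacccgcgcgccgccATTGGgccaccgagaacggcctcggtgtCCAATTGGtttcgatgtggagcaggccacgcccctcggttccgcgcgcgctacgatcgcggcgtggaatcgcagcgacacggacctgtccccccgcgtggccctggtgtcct
Thrsp, chr7:97417501-97417800, minus strand: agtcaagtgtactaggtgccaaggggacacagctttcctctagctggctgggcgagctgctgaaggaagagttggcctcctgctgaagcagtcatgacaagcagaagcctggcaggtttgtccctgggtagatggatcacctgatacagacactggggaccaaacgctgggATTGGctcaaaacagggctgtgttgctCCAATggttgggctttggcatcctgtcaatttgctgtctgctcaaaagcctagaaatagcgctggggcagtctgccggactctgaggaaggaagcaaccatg
Elovl5, chr9:77917115-77917414, plus strand: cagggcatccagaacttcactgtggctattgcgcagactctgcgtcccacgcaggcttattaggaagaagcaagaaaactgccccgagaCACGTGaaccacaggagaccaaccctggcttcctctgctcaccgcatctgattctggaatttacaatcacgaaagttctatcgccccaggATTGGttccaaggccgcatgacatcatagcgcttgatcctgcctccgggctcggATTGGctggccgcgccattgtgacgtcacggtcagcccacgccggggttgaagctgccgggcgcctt

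The Fasn window held CCAAT boxes at -90, -62 and -59, counted from the start site, and the last 2 overlap. Thrsp held CCAAT boxes at -79 and -52, and Elovl5 held them at -71 and -17. The only E-box of the 11 windows was that of Elovl5 at -161. A CCAAT box occurred in 7 of the 11 windows and in 6 of the 8 genes, against 37.4% of all 32851 windows in the reference, while the E-box occurred in 7.15% of them. A sterol element written TCACNCCAC, searched like the others on both strands, was in 1.24% of all windows and in 0 of the 11. These matches describe the letters of the windows and not the binding of a factor. Of the windows without a CCAAT box, 1 belonged to Acaca and 1 to Elovl6.

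The supply of acetyl-CoA and NADPH is described first. Acly (ENSMUSG00000020917) lies on chromosome 11 of GRCm38 from 100476353 to 100528000, 1.92 Mb from Zpbp2. Its level was 338, 556 and 422 CPM in WT1, WT2 and WT3 and 278, 261 and 257 CPM in KO1, KO2 and KO3. Every KO library was thus below every WT library, and the lowest WT library was 1.22 times the highest KO library. WT averaged 439 ± 109.8 CPM (SD, n = 3) against 269 ± 13.6 CPM (SD, n = 2) for KO, and the log2 fold change, -0.70 (SE 0.21), did not pass the test (edgeR, adjusted p = 0.119). Me1 (ENSMUSG00000032418, chromosome 9, 86581371 to 86695953) was at 70.5, 109.9 and 104 CPM in the WT libraries and at 84.6, 68.4 and 67.0 CPM in the KO libraries. WT1 lay among the KO values, so the genotypes overlapped. The log2 fold change of Me1 was -0.31 (SE 0.22, edgeR, adjusted p = 0.409).

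Acaca and Fasn catalyse consecutive steps, and their KO means were 40.9% (Fasn) and 41.1% (Acaca) of the WT means. Fasn (ENSMUSG00000025153) lies on chromosome 11 from 120805846 to 120824547, 22.2 Mb from Zpbp2. It was at 865, 1839 and 1187 CPM in WT1, WT2 and WT3 and at 549, 507 and 516 CPM in KO1, KO2 and KO3. The WT libraries spread over a 2.13-fold range, whereas KO1 was only 1.07 times the mean of KO2 and KO3. Mean levels were 1297 ± 496 CPM (SD, n = 3) and 530.3 ± 26.7 CPM (SD, n = 2), and KO differed from WT by -1.29 on the log2 scale (SE 0.33, edgeR, adjusted p = 0.0893). Acaca (ENSMUSG00000020532, chromosome 11, 84129672 to 84401651, 14.1 Mb from Zpbp2) was at 60.7, 125 and 77.8 CPM in WT and at 37.5, 34.2 and 35.2 CPM in KO. It followed Fasn, with WT2 highest, WT1 lowest of the WT libraries and all KO libraries below them. The log2 fold change of Acaca was -1.28 (SE 0.32, edgeR, adjusted p = 0.0860), with means of 87.8 ± 33.2 CPM (SD, n = 3) and 36.1 ± 1.95 CPM (SD, n = 2).

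The ratio of Fasn to Acaca hardly moved among the 6 libraries. It was 14.3, 14.7 and 15.3 in WT1, WT2 and WT3 and 14.7, 14.8 and 14.7 in KO1, KO2 and KO3, although the level of Fasn itself varied from 507 to 1839 CPM. The difference of the log2 ratio was -0.00394 with an exact permutation p of 1 (two-sided, 3 against 2 samples, where the smallest possible p is 0.2). Acly did not keep such a constant share, since its ratio to Fasn was 0.302 to 0.391 in WT and 0.499 to 0.515 in KO.

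**Figure D1:**
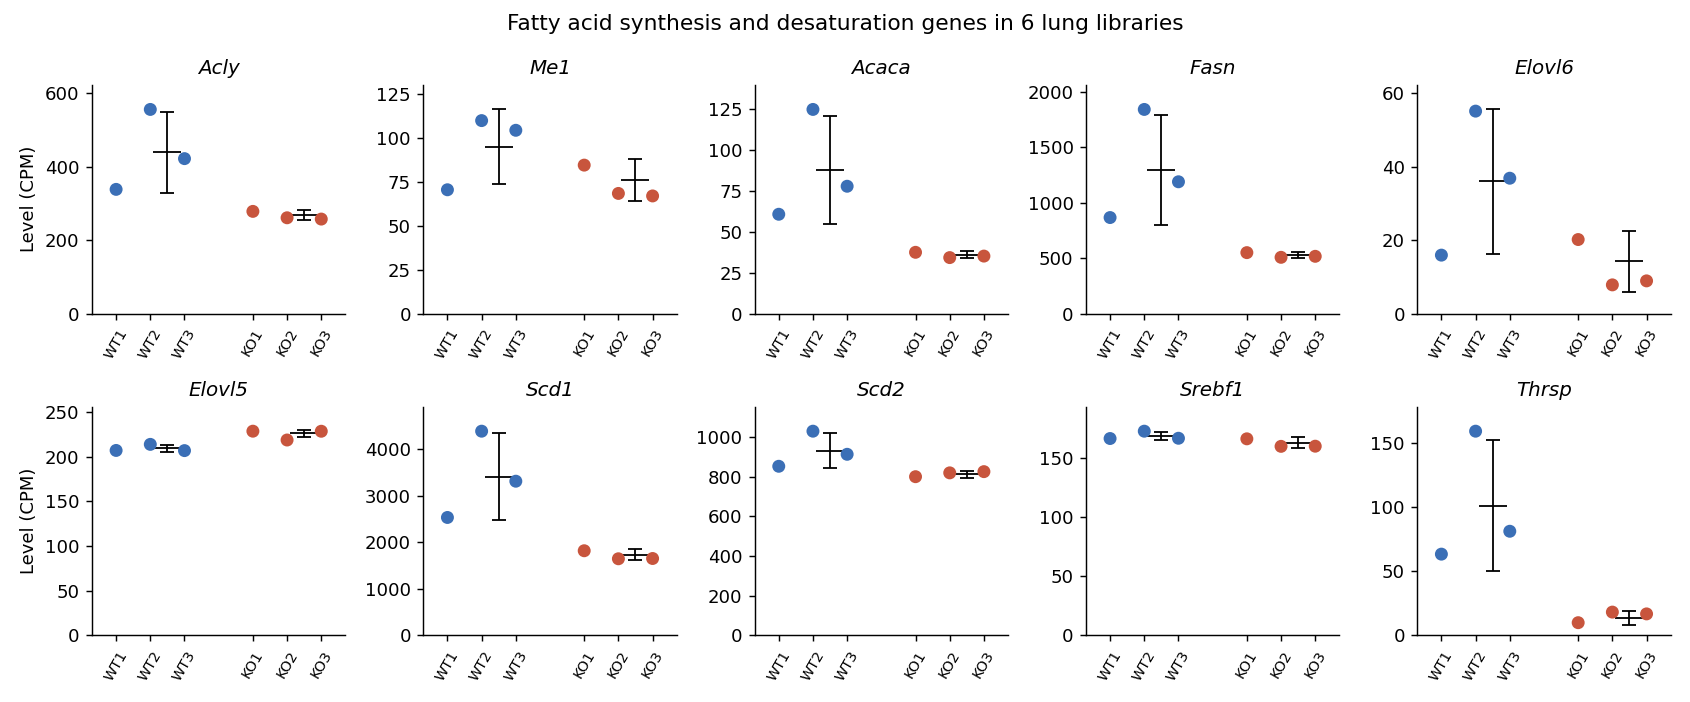
Level of each of the 10 genes in CPM (vertical axis, from 0) in 3 WT libraries (blue) and 3 KO libraries (red), with horizontal bars for the mean and vertical bars for ± SD (WT n = 3, KO n = 2 with KO2 and KO3 averaged). WT2 is the highest WT library in every panel, and Thrsp shows the widest gap as a ratio (3.49-fold), with 63.5 CPM in the lowest WT library and 18.2 CPM in the highest KO library.

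The desaturases differed from each other. Scd1 (ENSMUSG00000037071, chromosome 19, 44394455 to 44407879), the main stearoyl-CoA desaturase of fat and liver, was at 2529.5, 4381 and 3308 CPM in WT1, WT2 and WT3 and at 1816, 1643 and 1649 CPM in KO1, KO2 and KO3. All KO libraries were below all WT libraries, and the KO mean was 50.8% of the WT mean. This was a log2 fold change of -0.97 (SE 0.24, edgeR, adjusted p = 0.0832), between 3406 ± 929.7 CPM (SD, n = 3) and 1731 ± 119.7 CPM (SD, n = 2). Scd2 (ENSMUSG00000025203, chromosome 19, 44293674 to 44306864), its neighbour and close paralogue, was at 853, 1029.6 and 913 CPM in WT and at 800.1, 819 and 826 CPM in KO. The genotypes did not overlap, but the nearest libraries, WT1 and KO3, were only 1.03-fold apart. Its log2 fold change was -0.20 (SE 0.09, edgeR, adjusted p = 0.251), with a KO mean at 87.1% of WT. The ratio of Scd1 to Scd2 was 2.97, 4.26 and 3.62 in WT1, WT2 and WT3 and 2.27, 2.01 and 1.998 in KO1, KO2 and KO3, so that every KO library had less Scd1 per Scd2. The log2 ratio was lower by 0.75 in KO, at an exact permutation p of 0.2 (two-sided), the smallest that 3 against 2 samples can give. Reads that both paralogues share may have been lost or counted for the wrong gene, which was not tested.

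**Figure D2:**
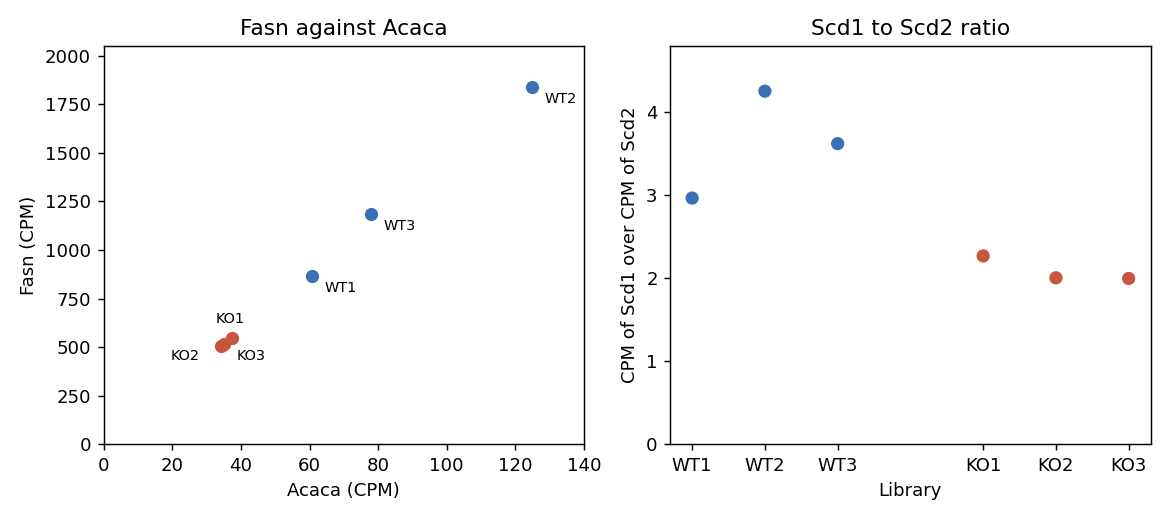
Left, CPM of Fasn against CPM of Acaca for each library; right, the CPM of Scd1 divided by that of Scd2 in each library (WT blue, KO red, all axes from 0). The 6 libraries lie along a single ratio of Fasn to Acaca, between 14.3 and 15.3, while the Scd1 to Scd2 ratio is 2.97 or more in WT and 2.27 or less in KO.

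The elongases did not share a direction. Elovl5 (ENSMUSG00000032349, chromosome 9, 77917364 to 77984519), which extends polyunsaturated fatty acids, was at 207, 214 and 207 CPM in WT1, WT2 and WT3 and at 229, 219 and 229 CPM in KO1, KO2 and KO3. Each KO library was above each WT library, by a small margin. The log2 fold change of Elovl5 was 0.12 (SE 0.05, edgeR, adjusted p = 0.202), between 209 ± 3.99 CPM (SD, n = 3) and 226 ± 3.51 CPM (SD, n = 2). Elovl6 (ENSMUSG00000041220, chromosome 3, 129532355 to 129638495), which extends palmitate to stearate, was at 15.9, 55.1 and 36.9 CPM in WT and at 20.2, 7.82 and 8.91 CPM in KO. WT1 was below KO1, so the genotypes overlapped, and KO1 was 2.41 times the mean of KO2 and KO3. Its log2 fold change of -1.33 had an SE of 0.64 (edgeR, adjusted p = 0.251), and it was -2.11 without KO1, -0.89 without WT2 and -0.84 without KO2 and KO3. The ratio of Elovl6 to Elovl5 was 0.0769 to 0.258 in WT and 0.0358 to 0.0882 in KO, which overlapped (exact permutation test, two-sided, p = 0.4).

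Of the regulators, Srebf1 had the smallest difference of the 10 genes and Thrsp the largest. Srebf1 (ENSMUSG00000020538, chromosome 11, 60199089 to 60222581, 38.3 Mb from Zpbp2) was at 166.41, 173 and 166.63 CPM in WT1, WT2 and WT3 and at 166.15, 159.8 and 159.9 CPM in KO1, KO2 and KO3. KO1 and WT1 differed by less than 1 CPM, so the genotypes barely separated. The log2 fold change was -0.04 (SE 0.05, edgeR, adjusted p = 0.611), between 169 ± 3.52 CPM (SD, n = 3) and 163 ± 4.45 CPM (SD, n = 2). The level of the Srebf1 transcript says nothing of the cleavage that activates its protein.

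Thrsp (ENSMUSG00000035686, chromosome 7, 97412938 to 97417730) was at 63.5, 159.6 and 81.4 CPM in the WT libraries and at 9.91, 18.2 and 16.8 CPM in the KO libraries. The lowest WT library was 3.49 times the highest KO library, the largest such ratio of the 10 genes. Thrsp averaged 101 ± 51.1 CPM (SD, n = 3) for WT against 13.7 ± 5.35 CPM (SD, n = 2) for KO, 13.5% of the WT mean. Its log2 fold change of -2.88 (SE 0.52) was just short of the threshold (edgeR, adjusted p = 0.0559) and ranked as number 60 from the lowest among 18660 genes. The study listed Thrsp from these same libraries, so its direction is not independent evidence. Relative to Fasn, Thrsp was at 0.0685 to 0.0868 in WT and at 0.0180 to 0.0359 in KO.

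As a group, 9 of the 10 genes were lower in KO by the estimate and 1, Elovl5, was higher. The median log2 fold change of the 10 was -0.84, against 0.02 over all genes tested. Every KO library was below every WT library in 7 genes (Acly, Acaca, Fasn, Scd1, Scd2, Srebf1 and Thrsp), a pattern that 20.7% of all tested genes had, and above in 1 gene, a pattern that 20.1% had. With edgeR 0 of the 10 reached an adjusted p of 0.05 or less, the threshold for a call; 2.28% of all genes were called in either direction and 0.906% were called lower. Without adjustment, 5 of the 10 had a p of 0.05 or less (Thrsp, Scd1, Acaca, Fasn and Acly), against 27.3% of all genes, and DESeq2 called 6, the same 5 lower and Elovl5 higher, where it called 21% of all genes. When KO2 and KO3 were kept as separate samples, 5 of the 10 were called, all lower, where 18.9% of all genes were called and 9.07% were called lower.

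Those 5 genes, in the fit of 6 separate libraries, were Thrsp (log2 fold change -2.76, adjusted p = 0.0110), Scd1 (-1.0002, adjusted p = 0.0194), Acaca (-1.30, adjusted p = 0.0203), Fasn (-1.31, adjusted p = 0.0214) and Acly (-0.72, adjusted p = 0.0343). There KO2 and KO3 count as separate mice in spite of their near identity. Without WT3 and KO1, the libraries with squamous transcripts, 4 of the 10 were called (Fasn, Acaca, Scd1 and Thrsp), where 11.9% of all genes were called. That setting compares WT1 and WT2 with the sum of KO2 and KO3 as a lone KO sample, which is assumed to vary like the WT samples. Leaving out WT1, WT2 or WT3 alone left 0 genes called among all genes tested (edgeR; 3642, 3346 and 4193 at an unadjusted p of 0.05 or less).

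**Figure D3:**
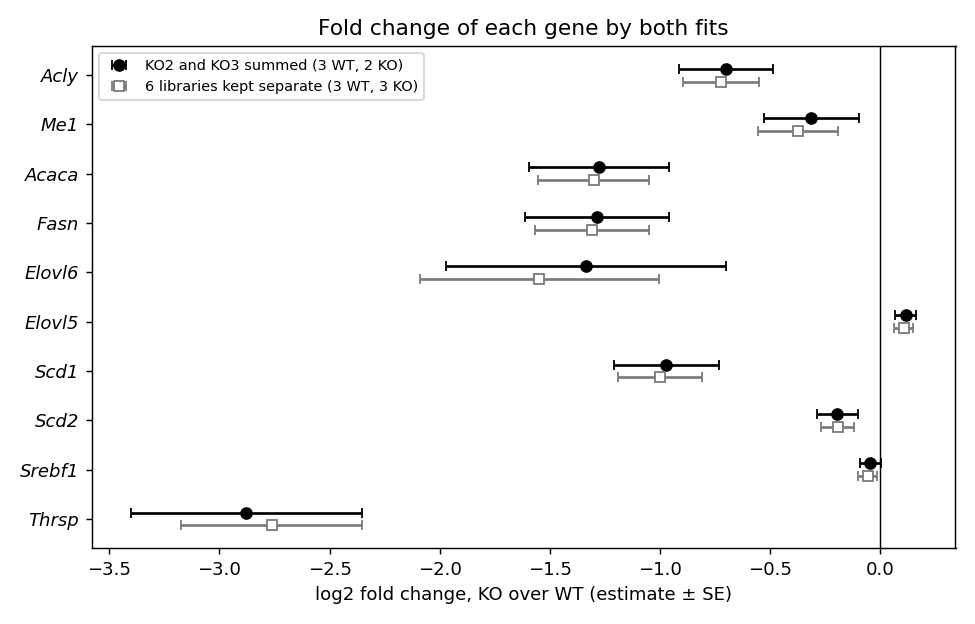
Log2 fold change of KO over WT (horizontal axis) with its standard error for each gene, from the fit with KO2 and KO3 summed (filled circles) and from that with 6 separate libraries (open squares). The estimates of both fits lie close together, from -2.88 for Thrsp to 0.12 for Elovl5 in the first fit, and the error bars of Elovl6 are the widest at 0.64.

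The WT libraries themselves differed in this group of genes. WT2 was the highest WT library in all 10, by 2.20 times the mean of WT1 and WT3 for Thrsp, 2.09 for Elovl6, 1.80 for Acaca, 1.79 for Fasn, 1.501 for Scd1 and 1.46 for Acly. Scd2, Srebf1 and Elovl5, the genes with the smallest differences between genotypes, were also the most even among WT libraries, at 1.17, 1.04 and 1.03. The coefficient of variation in WT ran from 1.91% for Elovl5 to 54.5% for Elovl6. In KO, Fasn, Acaca, Acly and Scd1 varied by 5.03%, 5.42%, 5.04% and 6.91%, while in WT they varied by 38.2%, 37.8%, 25.0% and 27.3%. With 2 KO samples this difference in spread was not tested. When WT2 was left out, the median log2 fold change of the 10 genes was -0.63, and when WT1 was left out it was -1.001. Each of the 10 genes kept its direction under all 17 alternative settings.

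**Figure D4:**
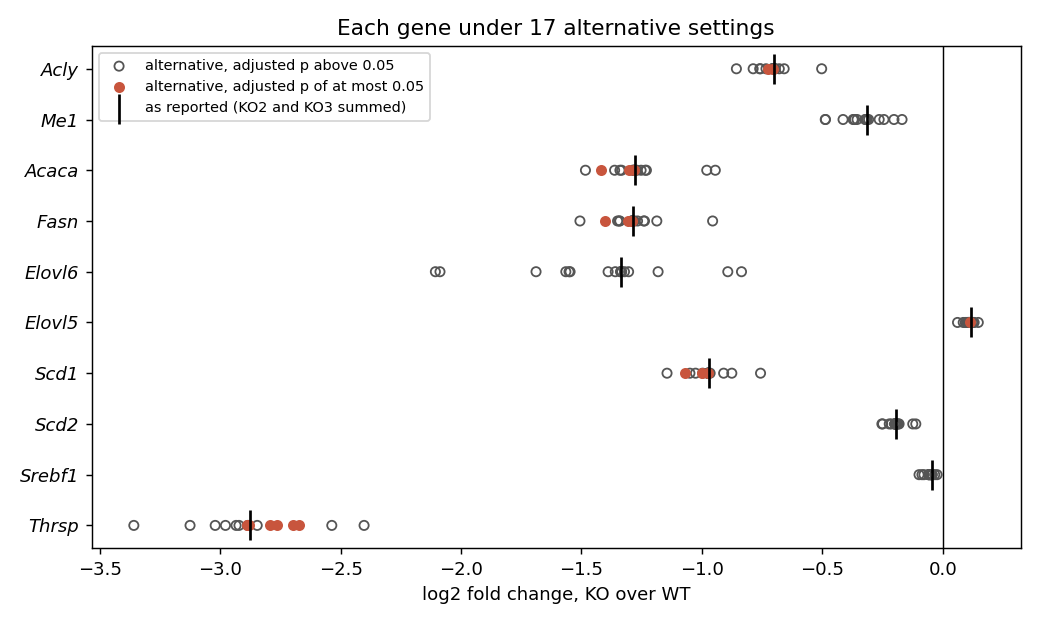
Log2 fold change of each gene (KO over WT) under 17 alternative settings (circles, filled where the adjusted p was at most 0.05) and as reported (vertical marks). All estimates of a gene stay on one side of 0, with Thrsp between -3.36 and -2.40 and called under 7 settings, and Elovl5 between 0.06 and 0.15.

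To compare genes with each other, CPM was divided by the length of the gene's exons in kb. In WT the order ran from Scd1 (696 CPM per kb) through Scd2 (171), Fasn (118), Acly (83.1), Elovl5 (59.4), Thrsp (46.4), Srebf1 (29.9) and Me1 (24.7) to Elovl6 (5.59) and Acaca (5.14). The WT ranges of these neighbours overlapped for Scd2 and Fasn, Fasn and Acly, Elovl5 and Thrsp, Thrsp and Srebf1, and Elovl6 and Acaca. In KO the order was Scd1 (354 CPM per kb), Scd2 (148), Elovl5 (64.2), Acly (50.9), Fasn (48.4), Srebf1 (28.9), Me1 (19.8), Thrsp (6.25), Elovl6 (2.22) and Acaca (2.11). There Acly and Fasn overlapped, as did Elovl6 and Acaca. Fasn thus stood above Elovl5 per kb in every WT sample and below it in every KO sample, and Thrsp stood above Me1 in every WT sample and below it in every KO sample.

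Of 52 other genes of the pathway, 51 were tested (Elovl2 was too low), and 29 were lower and 22 higher in KO by the estimate. Their median log2 fold change was -0.06. Acsl1, a long-chain acyl-CoA synthetase of fat and heart, was the 1 gene that passed the test, and it fell; 1 of 51 is no more than the 2.28% called over all genes. It was at 171, 204 and 164 CPM in WT1, WT2 and WT3 and at 99.9, 104 and 102 CPM in KO1, KO2 and KO3, lower by 0.82 on the log2 scale (SE 0.11, edgeR, adjusted p = 0.0448). The 3 KO libraries lay within a few percent of each other and well below the WT range. Its call was lost without WT1 (edgeR, adjusted p = 0.170), WT2 (0.189) or WT3 (0.123), at log2 fold changes of -0.89 to -0.73. It was also lost with the length and GC offset, where the log2 fold change was -0.60 (edgeR, adjusted p = 0.107). Under each of these settings 0 of all genes were called. The log2 fold change of Acsl1 was -0.81 without KO1 and -0.85 without KO2 and KO3. With 6 separate libraries 14 of 50 tested were called, 8 lower and 6 higher, where 18.9% of all genes were called and 9.07% were called lower.

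By role, the genes that supply citrate, acetyl-CoA and NADPH were lower in 8 of 10 cases, with a median of -0.20. The most abundant of them, the pentose phosphate enzyme Tkt, was at 245, 359 and 290.2 CPM in WT and at 242, 215 and 212 CPM in KO (log2 fold change -0.38, edgeR, adjusted p = 0.223). Of 5 genes of carboxylation and the synthase step, 3 were lower and 2 higher. Mid1ip1, a partner of acetyl-CoA carboxylase and relative of Thrsp, was at 168, 174 and 187 CPM in WT and at 242, 209.6 and 206 CPM in KO, opposite in direction to Thrsp (log2 fold change 0.36, edgeR, adjusted p = 0.0799). Among elongation genes 4 were lower and 6 higher, with a median of 0.17. Elovl1, the most abundant, was at 398, 359.6 and 399 CPM in WT and at 525, 441 and 451 CPM in KO (log2 fold change 0.34, edgeR, adjusted p = 0.103). For both Mid1ip1 and Elovl1 the lowest KO library exceeded the highest WT library.

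Among 9 desaturation genes 6 were lower and 3 higher. Cyb5r3, the reductase that passes electrons to cytochrome b5 for desaturation, was at 351, 357 and 369 CPM in WT and at 426, 417 and 422 CPM in KO (log2 fold change 0.24, edgeR, adjusted p = 0.0706). The direction of Cyb5r3 was thus opposite to that of Scd1. Scd4, a further stearoyl-CoA desaturase named after its values were seen, went the same way as Scd1. It was at 5.81, 4.66 and 4.39 CPM in WT and at 2.11, 2.39 and 2.35 CPM in KO (log2 fold change -1.14, edgeR, adjusted p = 0.0506). Of 5 acyl-CoA synthetases 3 were lower and 2 higher, and the most abundant, Acsl5, differed by a log2 fold change of 0.13 (edgeR, adjusted p = 0.207). Of 12 regulators 5 were lower and 7 higher, with a median of 0.03, and Srebf2, the sterol-responsive relative of Srebf1, was at 210.2, 206 and 236 CPM in WT and at 230.1, 218 and 213 CPM in KO (log2 fold change 0.04, edgeR, adjusted p = 0.784, with a sign that changed under 3 settings). Named after their values were seen, Acacb, the mitochondrial acetyl-CoA carboxylase, and Mlxipl, which encodes the glucose-responsive factor ChREBP, had log2 fold changes of -1.07 (adjusted p = 0.0506) and -1.07 (adjusted p = 0.0729) with edgeR. Acacb was at 81.0, 107 and 81.5 CPM in WT and at 47.8, 38.2 and 37.2 CPM in KO. Mlxipl was at 19.4, 33.8 and 26.1 CPM in WT and at 12.9, 12.4 and 12.01 CPM in KO, again with WT2 highest. Also named after their values were seen, Usf1 and Usf2, whose products bind E-boxes, went the other way, without overlap of the genotypes and with log2 fold changes of 0.35 (adjusted p = 0.0543) and 0.29 (adjusted p = 0.0551) with edgeR.

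Markers of the cell types that could carry these transcripts were compared between the genotypes as well. All 12 adipocyte markers were lower in KO by the estimate, with a median log2 fold change of -1.98, and in all 12 the KO libraries stayed below the WT libraries, as in 20.7% of all genes. The test called 4 of them, Plin1, Plin4, Lipe and Aoc3, where 0.906% of all genes were called lower. The study listed most of the 12 as lower from these same libraries, among them Plin1, Plin4, Aoc3, Fabp4 and Adipoq. The direction of these markers is therefore not independent evidence. There were 0 calls among the 12 without WT1, WT2 or WT3 and with the length and GC offset, where 0 of all genes were called. Under that offset the log2 fold changes were -3.23 for Plin1, -1.88 for Plin4, -0.89 for Lipe and -2.06 for Aoc3. These 4 genes were lower in KO under all 17 settings. The summed level of the 12 markers was 1059 to 1518 CPM in WT and 288 to 432 CPM in KO, highest in WT2 like that of the fatty acid synthesis genes. None of the 12 was at 0 in all libraries. The 3 most abundant were Cfd, Fabp4, the fatty acid carrier that lung endothelium also makes, and Lipe, the hormone-sensitive lipase. Fabp4 was at 221, 374 and 207 CPM in WT and at 25.4, 68.4 and 68.8 CPM in KO (log2 fold change -2.50, edgeR, adjusted p = 0.0698). Cfd had a log2 fold change of -1.41 (edgeR, adjusted p = 0.180), which was -0.81 without KO1 and -2.49 without KO2 and KO3. Lipe was at 124, 161 and 132 CPM in WT and at 74.1, 72.3 and 75.1 CPM in KO, and its log2 fold change of -0.91 (edgeR, adjusted p = 0.0450) was the smallest of the 12.

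Brown fat markers, 4 genes of which 0 were called by edgeR, summed to 41.8 to 214 CPM in WT and 14.7 to 22.1 CPM in KO. Without adjustment, 3 of the 4 had a p of 0.05 or less, against 27.3% of all genes. Ucp1, the uncoupling protein of brown fat, was at 49.5, 132 and 6.27 CPM in WT1, WT2 and WT3 and at 0.0954, 0.0968 and 0.137 CPM in KO1, KO2 and KO3. The study listed Ucp1, too, from these same libraries, so its direction is not independent evidence. Cox7a1 was at 43.1, 33.5 and 27.5 CPM in WT and at 19.6, 12.2 and 12.1 CPM in KO, above Ucp1 in WT3 and the KO libraries. Type 2 cell markers went the other way: all 10 were higher in KO by the estimate, 4 were called (Sftpc, Sftpb, Sftpa1 and Sftpd, each at an adjusted p of 0.0446 with edgeR) where 2.28% of all genes were called in either direction, and the sums were 22859 to 23897 CPM in WT and 32256 to 34140 CPM in KO. Sftpc, surfactant protein C, made up the largest part of these sums and had the largest log2 fold change of the 10, 0.62. Slc34a2 and Abca3 differed least of the 10, at 0.12 (adjusted p = 0.269) and 0.07 (adjusted p = 0.454) with edgeR. None of the 10 was called without WT1, WT2 or WT3 or with the length and GC offset, where 0 of all genes were called. Sftpc kept its direction under all 17 settings (0.46 to 0.66). The 6 alveolar macrophage markers summed to 206 to 260.1 CPM in WT and 186 to 208 CPM in KO, with 4 lower and 2 higher by the estimate. The 1 called was Mrc1, lower, where 0.906% of all genes were called lower. The 8 cardiomyocyte markers summed to 2518 to 7085 CPM in WT and 1327 to 1565 CPM in KO, with 0 called by edgeR. An unadjusted p of 0.05 or less was reached by 5 of the 8, against 27.3% of all genes. Hepatocyte markers summed to 4.28 to 5.68 CPM in WT and to 7.38, 50.8 and 51.0 CPM in KO1, KO2 and KO3. The part of these cell types in the levels of the fatty acid synthesis genes was not tested.

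**Figure D5:**
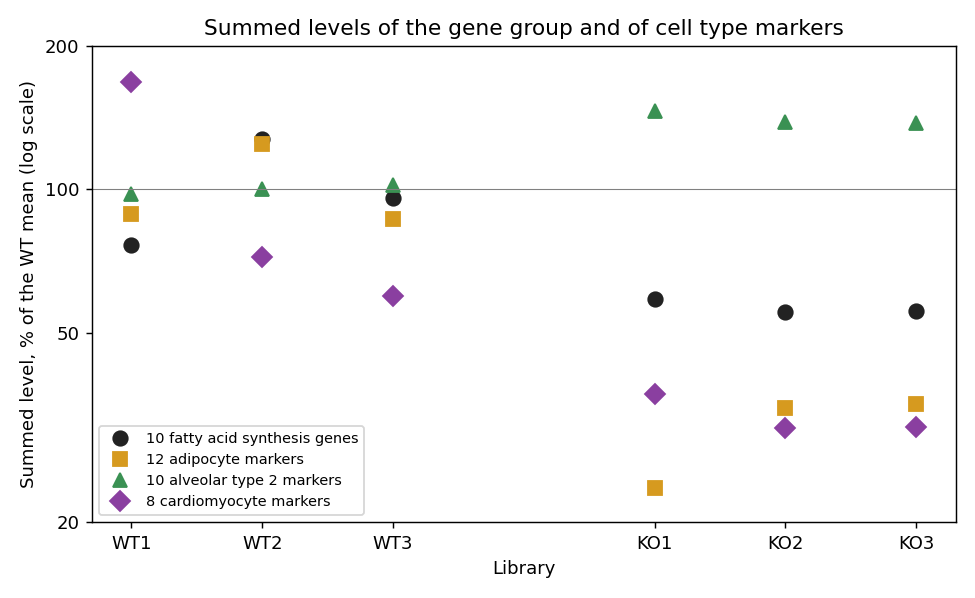
Summed CPM of the 10 fatty acid synthesis and desaturation genes and of 3 marker lists in each library, as a percentage of the mean of the 3 WT libraries (vertical axis, log scale). The gene group and the adipocyte markers are both highest in WT2 and lower in all KO libraries, the type 2 cell markers are higher in all KO libraries (32256 to 34140 CPM), and the cardiomyocyte markers are highest in WT1 (7085 CPM).

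Ratios to a marker place the genes beside both cell types. Fasn per Adipoq, the adipocyte hormone adiponectin, was 11.8 to 18.5 in WT and 87.4, 28.4 and 23.8 in KO1, KO2 and KO3. Adipoq and 7 other adipocyte markers were further below their WT mean than Fasn was in every KO library. The remaining 4 did not share this order throughout: Lipe was above Fasn in all KO libraries as a share of the WT mean, Retn and Cfd in KO2 and KO3, and Dgat2 in KO1. Scd1 per Adipoq was 34.5 to 47.6 in WT and 76.0 to 289 in KO, the same order. Thrsp per Adipoq was 0.865 to 1.61 in WT and 0.773 to 1.58 in KO, and these ranges overlapped almost wholly. Against Sftpc the order was reversed, since Fasn per Sftpc was 0.0715 to 0.148 in WT and 0.0276 to 0.0283 in KO, and Scd1 per Sftpc was 0.209 to 0.353 in WT and 0.0894 to 0.0928 in KO. In the KO libraries these ratios to Sftpc lay within a few percent of each other, while in WT they varied with WT2 highest.

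The summed level of the 10 genes was 5170, 8641 and 6504 CPM in WT1, WT2 and WT3 and 3990.1, 3738 and 3765 CPM in KO1, KO2 and KO3. Scd1 alone made up the largest part of it in every library. Shifts with transcript length touch this comparison too, since the log2 fold change over 18524 genes had a Spearman rho of -0.33 with exon length, given across genes, which are not independent replicates. With an offset for length and GC, 9 of the 10 genes were still lower in KO by the estimate. With edgeR 0 of the 10 were called there, as were 0 of all genes. At an unadjusted p of 0.05 or less stood 6 of the 10, against 3469 of 18516 genes tested. Exons of Acaca sum to 17.1 kb and those of Fasn to 10.9 kb, those of Thrsp to 2.19 kb and those of Elovl5 to 3.52 kb. Counts of Srebf1 and Me1 may be altered in either direction by overlapping genes on the opposite strand. These are Rai1 with up to 7199 counts and A330041J22Rik with up to 76 counts, each over its whole length. The strand setting of the counting was not given in the sources used here, and the effect was not tested.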

How the data were processed

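Lung total RNA of 3 WT and 3 KO mice at ZT7 was sequenced, and groups and replicate numbers were taken from the sample titles. The authors deposited raw counts of reads per gene with no normalization. Per the submitters' processing notes, reads were trimmed with Trimmomatic 0.36, aligned to GRCm38 with STAR 2.5.3a, handled with Picard 2.9.0 and counted with HTSeq 0.6.0; strand setting and annotation release were not given in the sources used here. All 6 count columns were used. Positions came from GENCODE M21 on GRCm38, which held 40340 (97.47%) of the 41388 identifiers, and promoter windows from RefSeq on GRCm38.p6.

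The counts went through edgeR 4.0.16 in R 4.3.3: filterByExpr, TMM factors, the quasi-likelihood test (glmQLFit, glmQLFTest, two-sided, KO against WT) and Benjamini-Hochberg adjustment over all genes tested, and a gene was called from an adjusted p of 0.05 downwards. The counts of KO2 and KO3 were summed as 1 sample. The script was tested on simulated data. SE is the log2 fold change divided by the square root of F. DESeq2 1.42.0 was an alternative, as were other scalings and filters, 6 separate libraries, a replicate block, a squamous epithelium term, a length and GC correction (offsets from splines with 5 degrees of freedom each) and leaving out libraries. Where KO1, or KO2 and KO3, were left out, KO was a lone sample assumed to vary like WT. The RNA was extracted from each mouse separately according to the study's methods, so p-values measure the spread between these mice, except between KO2 and KO3.

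The 10 genes, the other pathway genes and the marker lists were chosen with earlier results of these data known, so no list was tested and no p was adjusted over a list. Named are all 10 genes, other pathway genes that were called, the most abundant of each role, and the 3 most abundant markers of a list where their values bear on the comparison. Further markers (those called, Adipoq, Retn, Dgat2, Ucp1, Cox7a1, Abca3 and Slc34a2) and Scd4, Acacb, Mlxipl, Usf1 and Usf2 were named after their values were seen. Total counts of 59134950 to 71354388 limit the precision by counting error only for genes at a few counts, such as Zpbp2.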

Additional observations from a re-analysis of the deposited data

How the results depend on the processing

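The direction of each of the 10 genes and of their median was the same under all 17 alternatives, with a median between -1.001 (without WT1) and -0.63 (without WT2). The numbers of calls depended on the setting. Among all genes 426 were called as reported, 937 where each library had 10 counts or more, 3919 with DESeq2, 3402 with 6 libraries kept separate, 2256 without WT3 and KO1, 2440 with a squamous epithelium term, and 0 with the length and GC offset (edgeR, 3469 at an unadjusted p of 0.05 or less) and without KO2 and KO3 (edgeR, 5070). Leaving out one replicate gave 0 to 418 calls, with 0 without WT1, WT2 or WT3 and 17 without KO1. With library size alone 306 were called, 61.8% of them lower in KO against 39.7% as reported.

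The share of all genes called was 2.28% as reported, 1.53% with no low-count filter, 5.54% with at least 10 counts, 21% with DESeq2, 18.9% with separate libraries, 6.42% with the replicate block, 11.9% without WT3 and KO1 and 13.1% with the squamous term, and the counts that follow are to be read against it. Of the 10 genes, 0 were called as reported, 1 with no low-count filter (Thrsp), 1 with at least 10 counts, 6 with DESeq2, 5 with separate libraries, 4 without WT3 and KO1 (2 WT samples against a lone KO sample) and 1 with the squamous term. Of the other pathway genes, 1 was called as reported, 2 with no low-count filter, 5 with at least 10 counts, 18 with DESeq2, 14 with separate libraries, 9 without WT3 and KO1, 8 with the squamous term, 0 without KO2 and KO3, 0 with the length and GC offset, and 0 to 1 with one replicate left out. Their median was -0.06 as reported, -0.11 with library size alone and -0.0167 with the length and GC offset. Srebf2, close to 0 as reported, changed sign with library size alone (-0.0132), without WT2 (-0.00417) and without KO1 (-0.0137), and ranged up to 0.0996 (without WT3). The cause of these changes was not tested, apart from fewer samples where libraries were left out.

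Over 18014 genes the deviations of same-numbered libraries correlated at -0.54, 0.69 and -0.76, and WT3 correlated best with KO1 (0.80). WT2 correlated alike with KO2 (0.69) and KO3 (0.69), which are nearly identical. The check could therefore not tell which of KO2 and KO3 might pair with a WT library. With 6 libraries and the replicate block 1157 genes were called, 1 of the 10 (Thrsp) and 7 of the other pathway genes.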
